A study of Mus musculus with 6 samples.

Results

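The genes described here encode the chaperones and folding enzymes of the endoplasmic reticulum (ER), the sensors that report unfolded protein there, the PERK-ATF4 arm of the stress response, and ER-associated degradation (ERAD), which returns misfolded protein to the cytosol for breakdown. They were chosen by gene symbol, with earlier results of these data known. The list holds 52 genes: 26 chaperones and folding enzymes, 8 sensors and membrane-bound factors, 7 genes of the PERK-ATF4 arm and 11 of ERAD. Of these, 51 had a probe set that the platform annotation gives to a single gene, out of 18193 such genes, and 50 passed the filter on dim probe sets, out of 12408 genes tested. Fkbp10, a prolyl isomerase, had no such probe set, and Derl3, a channel protein of ERAD, had a mean log2 signal of 5.33 over the 6 arrays, below the lowest mean tested, 6.50. The measured value used to choose among a gene's probe sets was this mean. Where a gene had several, the one brightest on average over both groups together was read. The difference between the groups played no part in that choice of probe set.

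The ER folds proteins bound for the cell surface, the extracellular matrix and secretion. When unfolded protein accumulates, IRE1 splices the Xbp1 transcript, PERK phosphorylates a translation initiation factor so that Atf4 is translated, and ATF6 is cut free of the membrane. The factors released in this way bind short promoter elements of chaperone and ERAD genes, and BiP, the product of Hspa5, holds the sensors inactive when it is free to bind them. Differentiating muscle precursors are known to pass through a phase of ER stress signalling.

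Transcript levels came from Affymetrix mouse genome arrays of total RNA from primary mouse myoblasts, the precursor cells of muscle fibres, with 3 control arrays and 3 arrays of cells infected with lentivirus carrying LncMyoD shRNA. LncMyoD is a long non-coding RNA studied in muscle differentiation, and the hairpins were carried in the Tet-pLKO-puro vector, which also confers puromycin resistance. Cells of both groups are labelled as 21 days old. The labels call the replicates biological, but leave unsaid what the control cells received, whether any array is of cells in differentiation medium, how many hairpins were used and whether the cells were pooled or cloned. No probe set was matched to LncMyoD, so the knockdown itself was not checked here.

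Although the replicates are called biological, no label ties them to different animals or cultures, so the p-values below rest on array-to-array spread, part of which may be technical. All 8 myoblast markers were above the filter, with Myod1 at 13.80 in the control and 13.82 in the shRNA group. Of these 8, Pax7 (by 0.66), Cdh15 and Myf5 rose, while Myog (which fell by 0.13) and Mymk, genes of differentiating cells, fell. Both were bright in both groups: Myog read 14.13 in the control and 14.00 in the shRNA group, and Mymk 13.54 and 13.30. The summed log2 signal of the 8 ran from 99.3 to 100.04 in the control and from 100.75 to 101.3 in the shRNA arrays. Defining markers of endothelium (1 of 6 above the filter), leukocytes (2 of 6, with Cd68 higher by 0.33) and adipocytes (0 of 4) were mostly below it. Of the fibroblast list, 4 of 7 were above the filter, Pdgfra rose from 6.63 to 7.51 and Col3a1 fell from 10.85 to 10.34, and the summed log2 signal ran from 53.5 to 54.3 in the control and from 54.1 to 54.7 in the shRNA arrays. Of the list for secretory cells, which have a large ER, only 1 of 3 was above the filter, Cpa1, which was dim and fell from 7.62 to 6.93. Mzb1 (-0.24) and Jchain (0.12) were below the filter and were not tested. The summed log2 signal of this list ran from 19.9 to 20.7 in the control and from 19.1 to 19.5 in the shRNA arrays. The 3′ minus 5′ signal of the GAPDH control probe sets was 0.14 ± 0.045 (SD, n = 3) in the control and 0.23 ± 0.038 in the shRNA arrays, and that of actin was 0.51 ± 0.018 and 0.55 ± 0.017, each with an exact two-sided permutation p of 0.1, the smallest that 20 assignments allow. The part of these markers and controls in the results below was not tested.

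Of the chaperone class, 20 of 25 tested transcripts fell in the shRNA arrays and 1 rose. The class of sensors and membrane-bound factors split into 4 that rose and 3 that fell, the latter being Xbp1, Creb3l2 and Wfs1. The PERK-ATF4 arm split into 3 that rose and 1 that fell. Decreases passed the threshold for 27 of 50 tested genes and increases for 11, and the other 12 stayed short of it. The threshold was an adjusted p of 0.05 in limma's moderated test over all 27022 probe sets tested. Among all 12408 genes, 58.5% passed in either direction, against 76% of the genes described here. Decreases made up 54% of them, against 22.8% of all genes, and increases 22%, against 35.7% of all genes. Their median difference was -0.14 on the log2 scale (shRNA minus control), against 0.045 for all genes. A difference of at least 0.5 that passed the test was found for 15 (30%, against 17.7% of all genes), and the 3 control and 3 shRNA values did not overlap for 41 (82%, against 64.7%). Since the genes were listed with earlier results of these data known, their shares beside those of all genes are descriptions. In whole-culture RNA, fewer cells that carry a transcript and less of it per cell cannot be told apart.

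The scaling of the arrays bears on these directions. When the median of the tested probe sets was set equal on all arrays, the split over all genes moved from 4425 higher and 2828 lower (61.0% higher) to 3619 higher and 3670 lower (49.7% higher). The same centring gave 11 increases and 30 decreases among the genes described here.

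**Figure D1:**
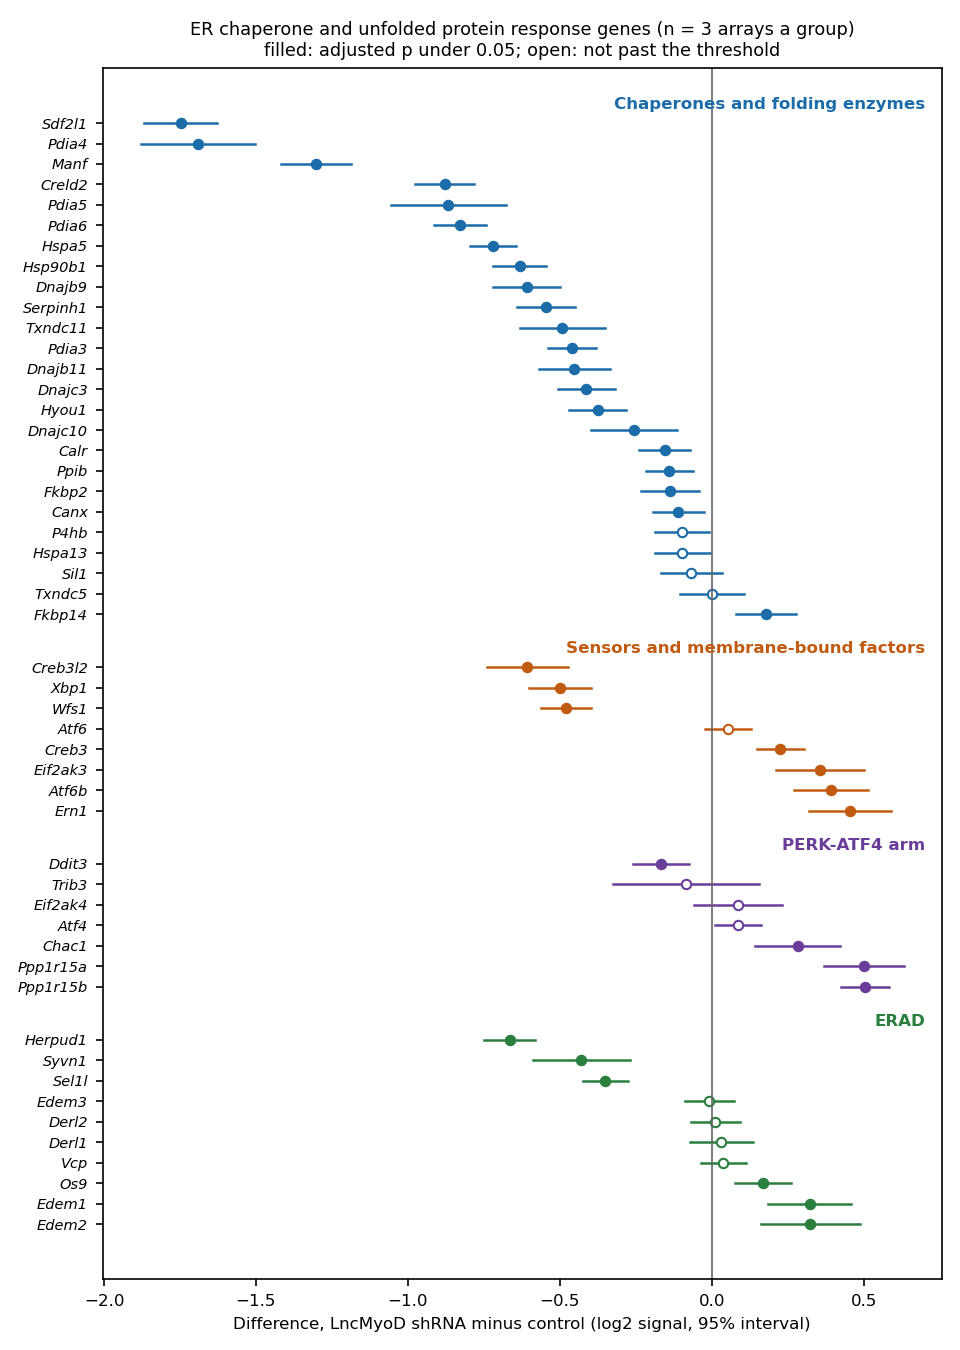
Difference in log2 signal, LncMyoD shRNA minus control, for the 50 tested genes by class; points are limma's estimates from 3 against 3 arrays and bars are 95% confidence intervals without adjustment. The chaperone class lies almost wholly left of 0, down to -1.75 for Sdf2l1, and the other 3 classes spread to both sides.

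Counts were then taken by class. The chaperones and folding enzymes had a median difference of -0.45: of 25 tested, 20 fell, only Fkbp14 rose, and 4 stayed short of the threshold. Of 8 sensors and factors, 4 rose (Ern1, Eif2ak3, Atf6b and Creb3) and 3 fell (Xbp1, Creb3l2 and Wfs1), with a median of 0.14. When each gene was read by the mean of its probe sets, 2 of the sensors and factors and no chaperone-class gene rose. In the PERK-ATF4 arm 3 of 7 rose and 1 fell (median 0.087), and in ERAD 3 of 10 rose and 3 fell (median 0.022). The share past the threshold was 57.1% in the PERK-ATF4 arm and 60% in ERAD, near the 58.5% of all genes. In the chaperone class it was 84% and among the sensors and factors 87.5%. Since the classes were drawn up by function with earlier results of these data known, these counts are descriptions and no test was made between classes.

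**Figure D2:**
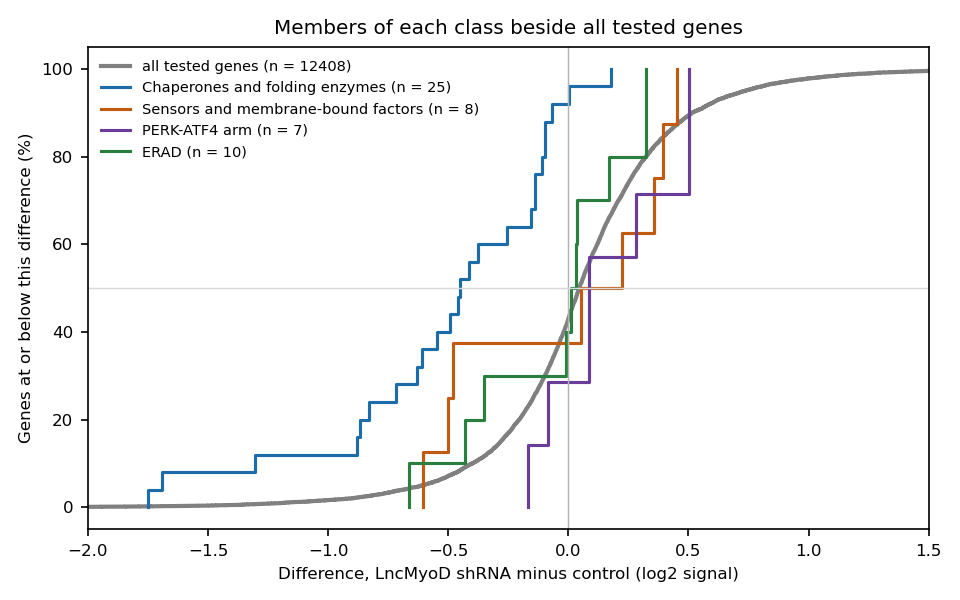
Cumulative share of genes (%) at or below each difference in log2 signal, for the 4 classes and for all 12408 tested genes. The chaperone line reaches 50% at -0.45, the line of all genes at 0.045, and the sensor, PERK-ATF4 and ERAD lines run near or to the right of the line of all genes at their midpoint.

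The promoters of these genes were searched for the elements through which the unfolded protein response is known to act, and the matching sites are printed here because the 8 tested genes of the list that carry the main element all fell. Sequences are from RefSeq (build GRCm38.p6), in windows of 250 bases before to 50 bases after each annotated transcription start, which were found for 44 of the 52 genes and for 27025 genes in all. The ER stress response element (ERSE) was searched on both strands as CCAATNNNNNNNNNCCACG, where N is any base. It is the site that factors of the ATF6 and XBP1 family are known to bind with the CCAAT-binding factor NF-Y. It was found in 9 of the 44 genes (20.5%) and in 37 of 27025 genes (0.137%). The list holds known targets of this response, several of them textbook carriers of the element, so its share is not independent of how the genes were chosen. Each site follows on the strand on which the element reads forward, with 10 bases on either side and the fixed ERSE letters in capitals.
Hspa5, ERSE, chr2:34772015-34772053, plus strand: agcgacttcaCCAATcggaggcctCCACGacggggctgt
Hsp90b1, ERSE, chr10:86705628-86705666, minus strand: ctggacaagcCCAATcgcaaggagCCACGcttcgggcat
Hsp90b1, ERSE, chr10:86705523-86705561, plus strand: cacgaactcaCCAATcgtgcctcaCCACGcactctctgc
Calr, ERSE, chr8:84847065-84847103, plus strand: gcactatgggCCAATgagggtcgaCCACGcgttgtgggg
Canx, ERSE, chr11:50325790-50325828, minus strand: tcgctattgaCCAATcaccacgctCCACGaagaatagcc
Pdia6, ERSE, chr12:17266481-17266519, plus strand: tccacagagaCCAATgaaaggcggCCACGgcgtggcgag
Dnajc3, ERSE, chr14:118937817-118937855, plus strand: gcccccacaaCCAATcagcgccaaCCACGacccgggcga
Creld2, ERSE, chr15:88819510-88819548, minus strand: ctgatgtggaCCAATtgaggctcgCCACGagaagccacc
Syvn1, ERSE, chr19:6046522-6046560, plus strand: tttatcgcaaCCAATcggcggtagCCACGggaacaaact
Derl3, ERSE, chr10:75893232-75893270, minus strand: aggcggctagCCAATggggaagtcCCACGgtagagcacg

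All 8 tested genes of the list with an ERSE fell, with differences from -0.88 (Creld2) to -0.11 (Canx) and a median of -0.53. Of the 6 tested genes with an ERSE outside the list, 2 fell (Ero1b and Zfp57), 2 rose (Alg12 and Pan2) and 2 stayed short of the threshold, with a median of 0.028. The ninth, Derl3, was too dim to test. None of the 10 genes with a window that rose and none of the 8 that did not pass the threshold held an exact ERSE. Within the chaperone class, the 7 genes with an ERSE had a median of -0.63 and all fell, and of the 14 with a window and no ERSE 11 fell, with a median of -0.46. The largest decreases, those of Sdf2l1 and Pdia4, belong to genes whose windows hold no match to these letters. The next largest was that of Manf, which had no window and so was not searched. Hyou1, Hspa13, Sil1, Fkbp10, Atf6, Ppp1r15b and Derl1 had no window either.

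Hsp90b1 holds 2 elements, in opposite directions, 212 and 107 bases before the start. The element of Hspa5 begins 65 bases before the start. The 250 bases before each of these starts are shown in full because these genes encode the main Hsp70 and Hsp90 chaperones of the ER, with the fixed letters in capitals, on the strand of the gene (an element on the other strand reads CGTGG first).
Hspa5, chr2:34771840-34772089, plus strand: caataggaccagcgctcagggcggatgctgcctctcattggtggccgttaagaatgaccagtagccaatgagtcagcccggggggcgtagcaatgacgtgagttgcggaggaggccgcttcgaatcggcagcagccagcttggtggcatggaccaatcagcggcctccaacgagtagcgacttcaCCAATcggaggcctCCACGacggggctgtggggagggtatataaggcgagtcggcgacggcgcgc
Hsp90b1, chr10:86705445-86705694, minus strand: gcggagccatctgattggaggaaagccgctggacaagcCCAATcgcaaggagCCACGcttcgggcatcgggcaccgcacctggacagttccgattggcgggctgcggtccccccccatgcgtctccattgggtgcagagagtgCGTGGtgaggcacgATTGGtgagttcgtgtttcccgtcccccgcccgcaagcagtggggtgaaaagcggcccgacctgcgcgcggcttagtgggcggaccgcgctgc

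A shorter element, ERSE-II, was searched as ATTGG, 1 base of any kind, then CCACG, on both strands like the others, and found in Herpud1, 52 bases before the start, and in Dnajb11, 7 bases after it, both of which fell. That is 2 of 44 genes (4.55%) against 0.0444% of all genes. The UPRE, TGACGTGG, occurred in Txndc5, Txndc11 and Vcp (6.82%, against 0.714% of all genes), and of these Txndc11 fell. An ATF4 element, TGATGNAA, occurred in Herpud1, Chac1, Txndc5 and Trib3 (9.09%, against 4.51%). Of these Chac1 rose, Herpud1 fell, and Txndc5 and Trib3 did not pass the threshold. ERSE, ERSE-II and the reverse strand of the UPRE share the letters CCACG, so the searches are not separate. Among all tested genes with a window, the shares were 0.0798% for ERSE-II, 1.13% for the UPRE and 2.70% for the ATF4 element. The ERSE-II site of Herpud1 and the ATF4 element of Chac1, the ATF4-arm gene with an element that rose, are given with the fixed letters in capitals.
Herpud1, ERSE-II, chr8:94386367-94386397, plus strand: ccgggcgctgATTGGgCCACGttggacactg
Chac1, ATF4 element, chr2:119351039-119351066, minus strand: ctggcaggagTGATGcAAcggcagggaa

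**Figure D3:**
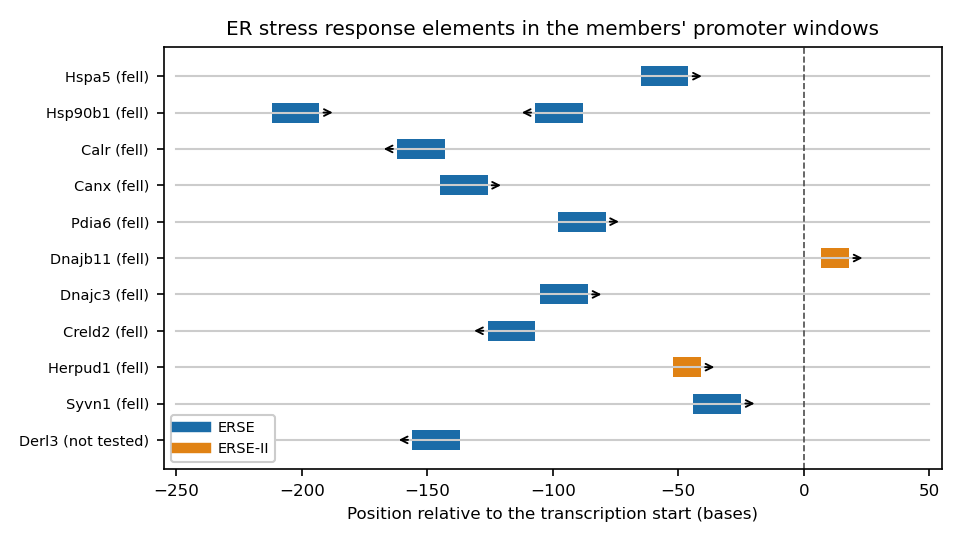
Positions of ERSE (blue) and ERSE-II (orange) matches in the promoter windows, in bases from the annotated transcription start; arrows give the strand relative to the gene. All ERSE matches lie before the start, from 212 bases (Hsp90b1) to 44 bases (Syvn1), and the ERSE-II match of Dnajb11 lies after it.

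Among the chaperones of the Hsp70 and Hsp90 families and the lectins that hold glycoproteins, 5 of 7 fell (71.4%, against 22.8% of all genes). Hspa5 encodes BiP, the main Hsp70 chaperone of the ER. Hspa5 read 13.61, 13.57 and 13.65 in the control arrays and 12.86, 12.91 and 12.90 in the shRNA arrays (log2 signal, arrays 1 to 3). Every shRNA array lay below every control array. The mean fell by 0.72 (SE 0.034), or 1.65-fold, with an adjusted p of 5.07e-09. Hsp90b1 encodes GRP94, the Hsp90 chaperone of the ER lumen. Log2 signals of Hsp90b1 were 13.61, 13.57 and 13.67 in the controls and 12.92, 12.99 and 13.04 with LncMyoD shRNA. Its shRNA values were all lower, again without overlap. The group means were 13.62 ± 0.049 and 12.98 ± 0.059 (SD, n = 3), a 1.55-fold decrease (limma, adjusted p 4.87e-08).

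Calr and Canx encode calreticulin and calnexin, the lectin chaperones of the glycoprotein folding cycle. In the control arrays Calr had log2 signals of 13.99, 13.89 and 13.93, and in the shRNA arrays 13.72, 13.81 and 13.82. The groups did not overlap, but the highest shRNA array came close to the lowest control array. The difference was -0.15 (SE 0.039, limma, adjusted p 0.00438), which passed the threshold. The log2 signal of Canx was 13.67, 13.57 and 13.65 in the controls, against 13.47, 13.55 and 13.54 in the shRNA arrays. The gap between the groups was narrow, with control array 2 just above the highest shRNA array. This decrease, from 13.63 ± 0.055 to 13.52 ± 0.045 (SD, n = 3), was 1.08-fold with an adjusted p of 0.0275 in limma. Without control array 1 the Canx difference was -0.091 (adjusted p 0.0744), without control array 3 it was -0.098 (0.102), and without shRNA array 1 it was -0.084 (0.0943), each past the threshold no longer. The other 2 tested probe sets of Canx gave larger differences, -0.28 (adjusted p 0.000512) and -0.26 (0.000116), and the mean over its probe sets was -0.22 (0.000485). Both other probe sets of Calr fell as well. Hyou1, an Hsp110-like chaperone that works with BiP, fell by 0.38 (adjusted p 1.02e-05). Hspa13 (-0.097) and Sil1 (-0.067), an Hsp70-like protein and a nucleotide exchange factor of BiP, did not pass the threshold. Another probe set of Hspa13, dimmer than the one read, fell by 0.38 (0.00965).

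Protein disulfide isomerases form and rearrange the disulfide bonds of proteins that fold in the ER, and 5 of the 7 listed fell (71.4%, against 22.8% of all genes). Pdia4 encodes ERp72. For Pdia4, control arrays gave 9.55, 9.37 and 9.40 and shRNA arrays 7.67, 7.86 and 7.71 on the log2 scale. All 3 shRNA arrays were far below the controls. It fell by 1.69 (SE 0.087), 3.23-fold, with a limma adjusted p of 8.66e-09. Pdia6 encodes P5, an isomerase that binds BiP. Control arrays read 12.06, 12.04 and 12.08 for Pdia6, and shRNA arrays read 11.20, 11.23 and 11.26 (log2 signal). Both groups were tight and lay well apart. On average it was 1.78-fold lower, from 12.06 ± 0.021 to 11.23 ± 0.029 (SD, n = 3), with a limma adjusted p of 5.34e-09. Pdia5 encodes a further isomerase of the family. Pdia5 read 9.11, 9.01 and 8.84 in the control arrays and 8.15, 8.08 and 8.14 in the shRNA arrays (log2 signal, arrays 1 to 3). Its control arrays spread more than its shRNA arrays, and the groups did not overlap. The mean fell by 0.87 (SE 0.088), or 1.82-fold, with an adjusted p of 3.20e-06.

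P4hb encodes PDI itself, the founding isomerase, which is also a subunit of collagen prolyl hydroxylase. Log2 signals of P4hb were 13.49, 13.42 and 13.48 in the controls and 13.31, 13.33 and 13.45 with LncMyoD shRNA. The third shRNA array lay inside the control range. The difference was -0.098 (SE 0.041, limma, adjusted p 0.0595), which did not pass the threshold. Its 95% interval, without adjustment, ran from -0.19 to -0.0093 and so left out 0, although the adjusted p missed the threshold. Without control array 2 the difference was -0.12 (adjusted p 0.0487), and without shRNA array 3 it was -0.14 (0.0103). Pdia3, the isomerase that works with the lectin chaperones, fell by 0.46 (adjusted p 3.23e-07) and Txndc11 fell by 0.49 (3.17e-05). Txndc5 differed by 0.0017, with an interval from -0.10 to 0.11, and by 0.12 (0.0667) on its other probe set.

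J proteins stimulate the ATPase of BiP and hand it substrates. All 4 listed fell on the probe set read (100%, against 22.8% of all genes), Dnajc10 on its brightest probe set only. Dnajb9 encodes ERdj4, which helps keep IRE1 off. In the control arrays Dnajb9 had log2 signals of 13.09, 13.11 and 13.14, and in the shRNA arrays 12.41, 12.47 and 12.64. The third shRNA array was the highest of its group and still well under the controls. The group means were 13.11 ± 0.026 and 12.51 ± 0.12 (SD, n = 3), a 1.52-fold decrease (limma, adjusted p 5.53e-07). Dnajb11 fell by 0.45 (adjusted p 1.29e-05) and Dnajc3, also known as p58IPK, fell by 0.41 (3.87e-06). Dnajc10, a J protein with disulfide reductase activity, fell by 0.25 (0.00522) on its brightest probe set, while its other 2 tested probe sets rose, by 0.16 (adjusted p 0.0140) and 0.26 (0.00124). Its direction therefore depends on the probe set read, and the mean over its 3 probe sets was 0.054 (0.355).

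Manf, Creld2 and Sdf2l1 encode small ER proteins known as targets of the unfolded protein response, and their 3 decreases had a median of -1.30. Manf encodes a protein that binds BiP and can be secreted. The log2 signal of Manf was 12.64, 12.71 and 12.74 in the controls, against 11.27, 11.43 and 11.48 in the shRNA arrays. All shRNA values sat more than 1 log2 unit below all controls. This decrease, from 12.70 ± 0.050 to 11.39 ± 0.11 (SD, n = 3), was 2.47-fold with an adjusted p of 1.51e-09 in limma. Creld2 encodes an ER-resident protein with epidermal growth factor-like repeats. For Creld2, control arrays gave 11.83, 11.95 and 11.92 and shRNA arrays 11.03, 11.005 and 11.02 on the log2 scale. The shRNA arrays were close together and apart from the controls. It fell by 0.88 (SE 0.044), 1.84-fold, with a limma adjusted p of 8.00e-09. Sdf2l1, which works in a complex with the J protein of Dnajb11, showed the largest difference of all 50. Control arrays read 11.18, 11.23 and 11.14 for Sdf2l1, and shRNA arrays read 9.42, 9.38 and 9.50 (log2 signal). Its groups were the farthest apart in this class. On average it was 3.36-fold lower, from 11.18 ± 0.049 to 9.43 ± 0.062 (SD, n = 3), with a limma adjusted p of 1.84e-10. Manf, Sdf2l1 and Pdia4 were the 3 genes with a difference of at least 2-fold.

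Serpinh1 encodes HSP47, the chaperone of procollagen. Serpinh1 read 12.99, 12.96 and 13.01 in the control arrays and 12.35, 12.45 and 12.52 in the shRNA arrays (log2 signal, arrays 1 to 3). Again no shRNA array reached the control range. The group means were 12.98 ± 0.028 and 12.44 ± 0.083 (SD, n = 3), a 1.46-fold decrease (limma, adjusted p 3.83e-07). The prolyl isomerases changed little: Ppib fell by 0.14 (adjusted p 0.00539) and Fkbp2 fell by 0.14 (0.0179). The Fkbp2 call was lost without control array 2 (-0.14, adjusted p 0.0527) and without shRNA array 3 (-0.12, 0.0658). The other probe set of Ppib gave -0.046 (0.382), which did not pass. Fkbp14, an isomerase of collagen folding, was the only chaperone-class gene that rose, by 0.18 (0.00517), and averaging its probe sets took it below the threshold.

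**Figure D4:**
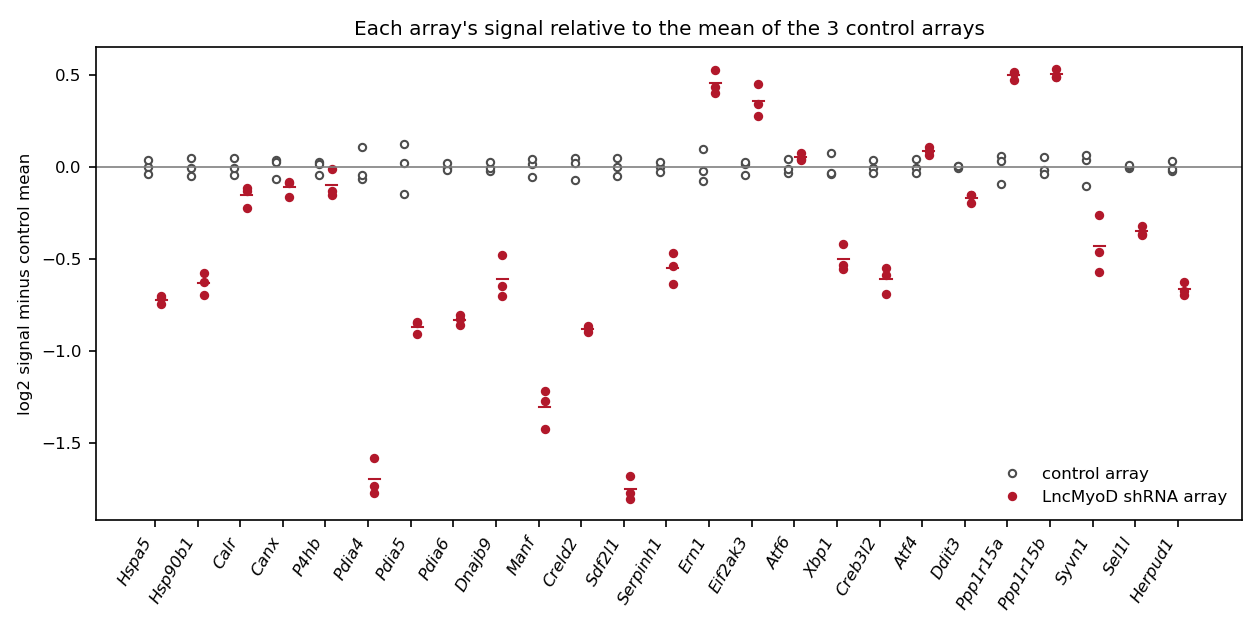
Log2 signal in each of the 6 arrays for the 25 genes whose values are given in full, as the difference from the gene's control mean, with control and LncMyoD shRNA arrays as separate points. Pdia4, Manf and Sdf2l1 lie more than 1 log2 unit below their control arrays, while Atf6, P4hb and Atf4 stay near 0.

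Among the sensors and membrane-bound factors, increases and decreases stood side by side. Ern1, Eif2ak3, Atf6b and Creb3 rose, Atf6 did not pass the threshold, and the decreases were those of Xbp1, Creb3l2 and Wfs1. Ern1 encodes IRE1, the kinase and nuclease that splices Xbp1. Log2 signals of Ern1 were 10.02, 9.85 and 9.90 in the controls and 10.36, 10.33 and 10.45 with LncMyoD shRNA. All 3 shRNA arrays were above all controls. The mean rose by 0.45 (SE 0.063), or 1.37-fold, with a limma adjusted p of 4.71e-05. Eif2ak3 encodes PERK. In the control arrays Eif2ak3 had log2 signals of 9.38, 9.32 and 9.39, and in the shRNA arrays 9.64, 9.81 and 9.70. The shRNA group was higher without overlap. The means were 9.36 ± 0.039 and 9.72 ± 0.089 (SD, n = 3), a 1.28-fold increase (limma, adjusted p 0.000580). Both genes were called on their brightest probe set only. The dim other probe sets of Ern1 differed by -0.048 and 0.055 and that of Eif2ak3 by -0.062, none past the threshold, and the means over each gene's probe sets were 0.15 (adjusted p 0.128) and 0.15 (0.137).

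Atf6 encodes the sensor that becomes a transcription factor when cut. The log2 signal of Atf6 was 13.22, 13.15 and 13.16 in the controls, against 13.22, 13.25 and 13.22 in the shRNA arrays. The groups overlapped. The difference was 0.054 (SE 0.035, limma, adjusted p 0.210), which did not pass the threshold. The interval of its difference ran from -0.021 to 0.13. Another probe set of Atf6 rose by 0.17 (adjusted p 0.00463), and the remaining probe set differed by 0.057 (0.402). Atf6b, its relative, rose by 0.39 (adjusted p 6.48e-05), and Creb3, another factor released from the membrane by cutting, rose by 0.23 (0.000160). On the other 3 probe sets of Creb3 the differences were 0.26 and 0.29, both past the threshold, and -0.0070 (0.955).

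Xbp1 encodes the factor that IRE1 activates by splicing, and the array signal gives the amount of its transcript without separating the spliced form. For Xbp1, control arrays gave 12.40, 12.41 and 12.52 and shRNA arrays 11.91, 11.89 and 12.03 on the log2 scale. The shRNA arrays were all lower than the controls. It fell by 0.50 (SE 0.047), 1.41-fold, with a limma adjusted p of 1.73e-06. All 4 of its tested probe sets fell, by 0.50 to 0.62. Creb3l2 encodes a membrane-bound factor of secretory cells and cartilage. Control arrays read 10.07, 10.04 and 10.12 for Creb3l2, and shRNA arrays read 9.49, 9.53 and 9.39 (log2 signal). No array crossed into the other group's range. The mean fell by 0.61 (SE 0.062), or 1.52-fold, with an adjusted p of 3.25e-06. Wfs1, which encodes wolframin, an ER membrane protein, fell by 0.48 (adjusted p 3.51e-07).

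In the PERK-ATF4 arm the largest differences were those of the phosphatase subunits that reverse PERK's action. Ppp1r15a encodes GADD34, the stress-induced subunit. Ppp1r15a read 9.70, 9.67 and 9.55 in the control arrays and 10.16, 10.12 and 10.16 in the shRNA arrays (log2 signal, arrays 1 to 3). The shRNA arrays were tightly grouped above the controls. The mean rose by 0.50 (SE 0.060), or 1.42-fold, with a limma adjusted p of 1.48e-05. Ppp1r15b encodes CReP, the constitutive subunit. Log2 signals of Ppp1r15b were 12.87, 12.80 and 12.78 in the controls and 13.31, 13.35 and 13.31 with LncMyoD shRNA. Its groups were likewise apart, with the shRNA arrays higher. The means were 12.82 ± 0.050 and 13.32 ± 0.026 (SD, n = 3), a 1.42-fold increase (limma, adjusted p 1.66e-07). Its other probe set also rose.

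Atf4 encodes the transcription factor whose translation rises when PERK or a related kinase is active. In the control arrays Atf4 had log2 signals of 13.14, 13.09 and 13.06, and in the shRNA arrays 13.21, 13.19 and 13.16. The shRNA arrays were higher without overlap, by a small margin. The difference was 0.087 (SE 0.035, limma, adjusted p 0.0513), which did not pass the threshold. Without control array 1 it was 0.11 (adjusted p 0.0223), which passed the threshold. Its other tested probe set pointed the other way at -0.12 (0.0898), and the mean of both was -0.016 (0.725), so these data give no direction for Atf4. Ddit3 encodes CHOP, a factor linked to cell death under prolonged stress. The log2 signal of Ddit3 was 11.15, 11.16 and 11.16 in the controls, against 10.96, 11.01 and 11.002 in the shRNA arrays. Each shRNA array was a little below each control array. This decrease, from 11.16 ± 0.0059 to 10.99 ± 0.023 (SD, n = 3), was 1.12-fold with an adjusted p of 0.00527 in limma. Its other, dimmer probe set differed by -0.18 (adjusted p 0.116) and did not pass. Chac1, a glutathione-degrading enzyme and known ATF4 target, rose by 0.28 (0.00236). Trib3, another such target, differed by -0.084 (0.551) with overlapping groups, and Eif2ak4, the kinase GCN2, by 0.086 (0.302).

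ERAD genes moved both ways, and their share past the threshold (60%) was near that of all genes (58.5%). Herpud1 encodes a membrane protein that organises the degradation complex. For Herpud1, control arrays gave 12.47, 12.53 and 12.48 and shRNA arrays 11.80, 11.87 and 11.82 on the log2 scale. The shRNA arrays lay below the controls with a wide gap. On average it was 1.59-fold lower, from 12.49 ± 0.028 to 11.83 ± 0.037 (SD, n = 3), with a limma adjusted p of 2.24e-08. Syvn1 encodes HRD1, the ubiquitin ligase of that complex. Control arrays read 10.92, 11.06 and 11.09 for Syvn1, and shRNA arrays read 10.46, 10.56 and 10.77 (log2 signal). The shRNA arrays varied more than the controls but did not reach them. The group means were 11.03 ± 0.091 and 10.60 ± 0.16 (SD, n = 3), a 1.35-fold decrease (limma, adjusted p 0.000294). Sel1l encodes the adaptor of HRD1. Sel1l read 13.04, 13.05 and 13.06 in the control arrays and 12.69, 12.69 and 12.73 in the shRNA arrays (log2 signal, arrays 1 to 3). The 2 groups were narrow and separate. It fell by 0.35 (SE 0.034), 1.27-fold, with a limma adjusted p of 2.08e-06. All 4 other probe sets of Sel1l fell too, and one of them fell by 0.86.

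Edem1, Edem2 and Os9, which trim or read the glycans of proteins sent for degradation, rose by 0.32 (adjusted p 0.000769), 0.32 (0.00275) and 0.17 (0.00465). The other probe set of Edem1 differed by 0.024 (0.813). Edem3, Derl1, Derl2 and Vcp differed by -0.0086 to 0.038 and did not pass the threshold. Of the other 3 probe sets of Derl1, 1 rose by 0.14 (0.0380), and the other probe set of Edem3 differed by -0.28 (0.0836). Vcp encodes the ATPase that pulls substrates out of the membrane, and its other, dimmer probe set fell by 0.47 (0.000124).

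Other probe sets of the same genes gave a further reading of the same RNA. Of 32 genes with more than 1 tested probe set, all had the same call in 19. Of the 16 that fell and had another tested probe set, every other one fell in 12. In 22 of their 29 other probe sets the decrease was larger than in the brightest, the one that stands for the gene. Pdia3 fell by 0.46 on its brightest probe set and by 1.40 on the other. Dnajc3 fell by 0.41, and by as much as 1.03 on another. Increases were borne out less often: of the 7 genes that rose and had another tested probe set, every other one rose past the threshold in 2. The sizes given for each gene are therefore those of the probe set read.

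**Figure D5:**
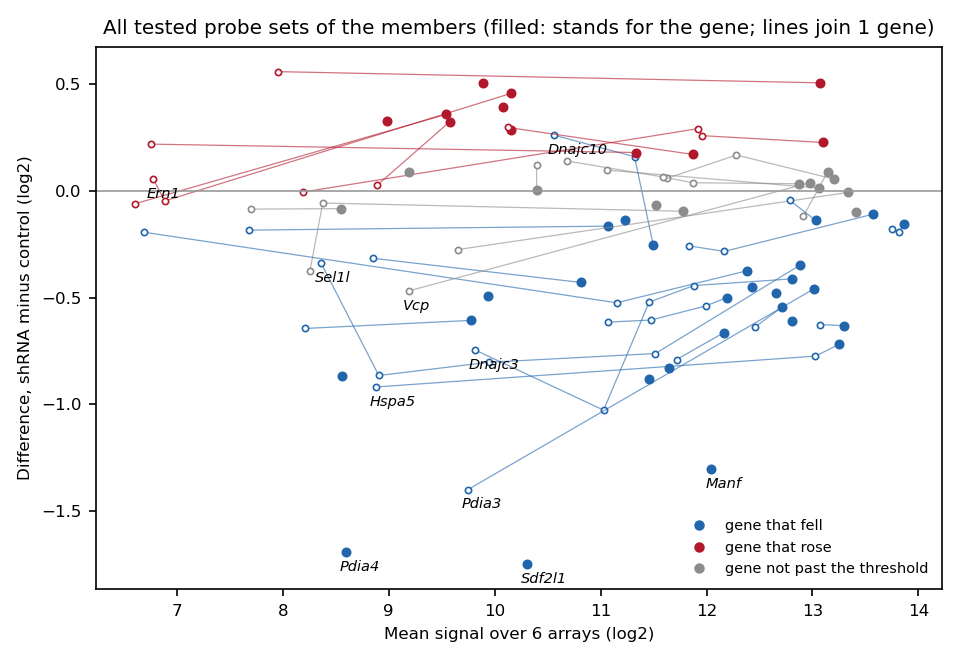
Difference in log2 signal (shRNA minus control) against mean log2 signal over 6 arrays for the 102 tested probe sets of these genes; filled points stand for the gene, open points are its other probe sets, and lines join probe sets of 1 gene. Several genes that fell, Pdia3 and Dnajc3 among them, have dimmer probe sets with larger decreases, and Dnajc10 and Vcp have probe sets that move differently.

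At the deposited scaling, increases outnumbered decreases among genes of the same pathways outside the list of 52, as they did among all genes. Of 84 such genes, listed by function, 79 were tested, and their median difference was 0.11. Increases passed for 36 of them (45.6%, against 35.7% of all genes) and decreases for 15 (18.99%, against 22.8%). Their share past the threshold, 64.6%, was near the 58.5% of all genes. Further folding factors and glycan-processing enzymes gave 15 increases and 6 decreases among 34, further ERAD genes 9 and 3 among 23, and further stress response genes 12 and 6 among 22. Of these, 61.8%, 52.2% and 81.8% were past the threshold, in that order, against 58.5% of all genes.

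The 10 largest of these differences were named by their size. Among those that fell, Ero1b, the oxidase that reoxidises disulfide isomerases, read 10.13, 10.21 and 10.28 in the control and 9.27, 9.17 and 9.15 in the shRNA arrays. The shRNA arrays were all lower, by 1.01 (adjusted p 5.43e-08). Ube2j1, the ERAD ubiquitin-conjugating enzyme, fell by 0.83 (2.94e-08), Creb3l1, a membrane-bound factor of collagen-secreting cells, fell by 0.78 (2.37e-06), and Eif2ak1, the haem-regulated kinase of the same initiation factor as PERK, fell by 0.70 (9.74e-08). Among those that rose, Atf3, a stress-induced transcription factor, read 7.70, 7.71 and 7.61 in the control and 8.62, 8.73 and 8.56 in the shRNA arrays. Its shRNA arrays were all higher, by 0.96 (1.34e-06). Bbc3, which encodes the cell death protein PUMA, rose by 0.79 (1.28e-06), Map3k5, the kinase ASK1 that acts below IRE1, by 0.77 (4.56e-07), and Cebpg, a partner of ATF4, by 0.70 (1.01e-06). Mogs, the glucosidase that starts glycan trimming, rose by 0.62 (4.06e-07) and Dnajc1, a J protein of the ER membrane, by 0.47 (9.70e-06). These sizes, too, are those of the probe set read. Across the 10 alternatives of processing that leave out no array, Ero1b ran from -1.07 to -0.63, Ube2j1 from -0.90 to -0.50 and Eif2ak1 from -0.76 to -0.59. Each of them kept its call.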

How the data were processed

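For each probe set, the table deposited by the authors gives a normalized log2 signal on 3 control and 3 shRNA arrays. That scale was read from the values, whose array median was 7.23 on all 6 arrays. PLIER and MAS5 are listed, per the submitters' processing notes, with no role. The versions, background correction and any offset are not stated in these sources. Neither scanner files nor detection calls were used. Arrays have no read depth, so precision is limited by their number. The table had 0 value columns that matched no sample.

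The 64 Affymetrix control probe sets and then the dimmest 40% of the rest by mean signal (18015) were left out. The 27022 others were tested with limma 3.58.1 in R 4.3.3 (lmFit, eBayes, variance trend on), taking shRNA minus control, with Benjamini-Hochberg adjustment over all of them and a threshold of 0.05. Probe sets with several gene symbols (932) or none (9211) named no gene. The procedure was tested on simulated data. The genes, classes and lists were chosen with earlier results of these data known.

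Every array's value is given for genes past the threshold with an absolute difference of 0.5 or more and for genes that define a class. The other pathway genes are given by counts and their 10 largest called differences. Promoter windows came from a RefSeq table (GRCm38.p6). A gene with several windows counts once. Proteins were not analysed here. Alternatives covered the filter, scaling, probe set choice, variance model, a replicate block and leaving out each array. The deviations of same-numbered arrays from their group means correlated at -0.13, -0.062 and 0.031, so the replicate numbers were not taken to pair the arrays.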

Additional observations from a re-analysis of the deposited data

How the results depend on the processing

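No count over the 50 genes or over all genes changed by more than 1.5 times under any of the 16 alternatives. By class, however, averaging a gene's probe sets took the increases among sensors and membrane-bound factors from 4 to 2. It took those of the chaperone class from 1 to 0. Leaving out each array in turn gave 11 to 12 increases and 26 to 27 decreases among the 50 genes, and 3894 to 4634 increases and 2475 to 2693 decreases among all genes. The other 10 alternatives gave 8 to 12 and 26 to 30 among the 50 genes, and 3619 to 4488 and 2405 to 3670 among all genes. With the replicate number as a block, 11 of the 50 genes rose and 26 fell, and over the whole table the genes that rose numbered 4179 and the genes that fell 2624. The numbers do not pair the arrays, and of the 38 called genes the block cost Canx its call (adjusted p 0.0760). Of the 38, 31 kept their call in every alternative that tested them. Averaging a gene's probe sets turned the sign of Dnajc10 (0.054), Vcp (-0.22), Atf4 (-0.016, not past the threshold either way) and, among the other pathway genes, Ero1a (0.026) and Rnf139 (-0.086); the average then includes probe sets that differ in direction or size. That averaging also ended the calls of Fkbp14, Ern1 and Eif2ak3, and leaving out probe sets ending in _x_at or _s_at ended that of Ppib (-0.046). Among uncalled genes, P4hb, Atf4, Hspa13, Sil1 and Vcp passed in at least 1 alternative. The signal over background could not be judged without detection calls.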

Other observations

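The exact ERSE letters also occur in the windows of 6 tested genes outside the list of 52, which were looked up after the member values had been seen. Their differences had a median of 0.028. Ero1b, the ER oxidase, fell by 1.01 (limma, adjusted p 5.43e-08), and Zfp57, a zinc finger protein that protects genomic imprints, fell by 1.18 (adjusted p 1.01e-08). Pan2, a subunit of a deadenylase, rose by 0.27 (0.00593). Alg12, a mannosyltransferase of glycan assembly in the ER, rose by 0.18 (0.0408), a call lost without control array 1 (0.13, adjusted p 0.115) and without each of the 3 shRNA arrays, and also with the arrays centred on their medians (0.12, adjusted p 0.190). Acacb (0.079) and Spats2l (-0.023) did not pass the threshold. Over all tested genes with a window, 10 of the 14 with an ERSE fell, 2 rose and 2 did not pass. Of those 10, 8 are on the list of 52. Among all 10023 tested genes with a window 2249 fell, and of the 35 listed ones without an ERSE 17 fell.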
